A study of Labroides dimidiatus with 23 samples.

Results

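The domains described here are long stretches of acetylated chromatin in the forebrain of the cleaner wrasse, Labroides dimidiatus, that some libraries carried and others lacked. A region was formed from bases under the deposited peaks of at least 3 of 22 libraries, joined over gaps of up to 200 bp. Cover is the percent of a region's bases that lie under the peaks of 1 library, and a region counted as present in a library when its cover was at least 50%. Domains were the regions of 10 kb or longer that were present in 21 or fewer of the 22 libraries. There were 1169 of them among 2144 regions of 10 kb or longer (54.5%) and among 52979 regions in all (2.21%). The other 975 long regions were present in every library. The 1169 partly missing domains covered 19.3 Mb, 14.5% of the 133.6 Mb under all regions. The domains were thus chosen by cover and presence in these lists, and both are given below as a description, without a test of their own.

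H3K27ac, histone H3 acetylated at lysine 27, is written by the acetyltransferases CBP and p300 and removed by histone deacetylases. It lies at active promoters and enhancers, where acetylated tails are bound by bromodomain proteins that help transcription to proceed. In many vertebrate tissues the mark also forms long stretches of clustered enhancers or long promoter domains, often at genes that are strongly used in that cell type, and in neurons it changes with activity at many enhancers. CUT&RUN reads the mark by letting an antibody hold a nuclease at the modified nucleosomes and sequencing the fragments that are cut free. A broad peak is the peak caller's joining of neighbouring enriched stretches, so that a domain can be listed as 1 long peak in one library and as several short ones in another.

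Each of the 23 libraries was made from forebrain of adult fish. Familiar fish had met 1 client, a fish that cleaners feed from, before a social preference test, and control fish had met neither client. Libraries carried the number 120 or 30 without a unit, which is read here as a time label, and that reading is an assumption. The groups were familiar 120 (6 libraries), control 120 (6), familiar 30 (6, of which 5 were used) and control 30 (5). Libraries are named by group and replicate, numbered in the order of deposition. No genotype, sex or single-fish statement accompanies them beyond a number in each title, taken here as a fish number, so spread between libraries may in part be technical. Forebrain holds neurons, glia, blood and vessel cells, and fewer cells with the mark cannot be told apart from less mark per cell. Cell type markers were not checked, because no gene annotation was used here. For the same reason the domains are given by position as deposited, on a genome build not given in the sources used here, with no gene, exon or sequence named.

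The 22 lists held 34713 to 48263 peaks outside the mitochondrial genome and covered 67.3 to 95.2 Mb. The lists give no read counts, so depth is unknown. Familiar 30 replicate 2 listed 7076 peaks over 4.70 Mb and was left out by the rule. It is described separately below. Familiar 120 replicate 3, control 30 replicate 3 and familiar 30 replicate 4 were known from earlier results of these lists to stand apart from the other 19 in where their peaks lay. The least was covered by familiar 120 replicate 3, with 67.3 Mb, and familiar 120 replicate 4, which is not one of those 3, covered 69.9 Mb. The main values that rest on the 3 libraries are given with and without them, and the piece measures over all 22.

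Most of the domains were missing from few libraries. There were 511 domains present in 21 libraries (43.7%) and 270 present in 20 (23.1%). A further 101 were present in 19, 56 in 18, 59 in 17 and 38 in 16. At the other end, 60 domains were present in 11 libraries or fewer, and 8 were present in 3. The median length was 13639 bp (quartiles 11475 and 18399, range 10002 to 90745), against 17074 bp for the domains present in every library (quartiles 12773 and 24746, range 10031 to 115765). Mean cover over the 22 libraries had a median of 72.4% in partly missing domains (range 13.6 to 92.3) and 85.8% in the others (range 64.7 to 98.0). The share of partly missing domains was lower among longer regions, with 68.5% of the regions of 10 to 12 kb (380 of 555), 57.5% of those of 12 to 16 kb, 51.3% of those of 16 to 24 kb and 34.8% of the longer ones (139 of 399).

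**Figure D1:**
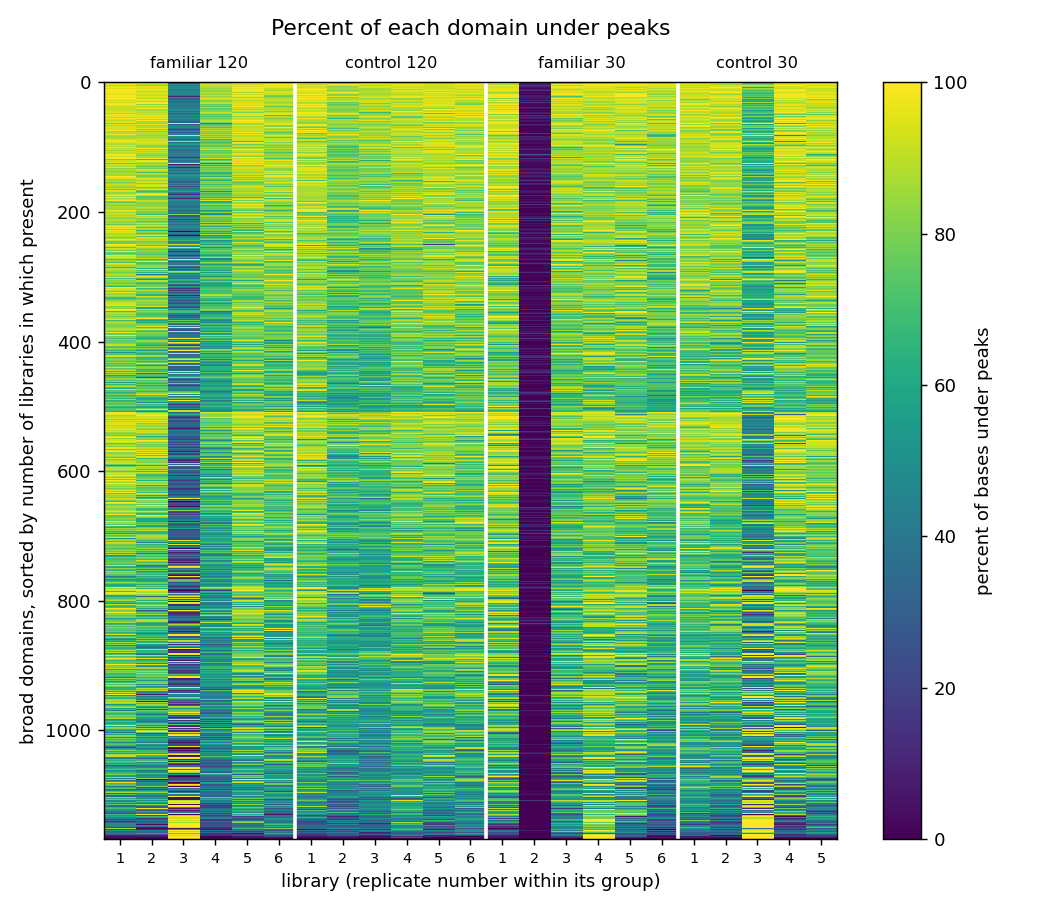
Cover of each of the 1169 partly missing domains (rows, sorted by the number of libraries in which they were present) in each library (columns, by group and replicate number). Familiar 120 replicate 3 is the darkest of the 22 used columns and turns bright in the lowest rows, the domains present in fewest libraries. Control 30 replicate 3 is also bright there, and familiar 30 replicate 4 is bright over most rows, the lowest included. Familiar 30 replicate 2, left out by the rule, is dark throughout.

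A missing domain was seldom an empty one. Of the 25718 pairs of a domain and a library, 3579 were absences (13.9%). In these, cover had a median of 39.5% (quartiles 29.2 and 45.5), where the rule itself kept it under 50%. Cover was at least 25% in 2914 absences (81.4%) and at least 40% in 1723 (48.1%), and it was 0 in 73 (2.04%). A peak touched 1140 of the 1169 domains in all 22 libraries (97.5%). The lowest library of a domain had a cover of 0 in 29 domains, above 0 and under 10% in 68, from 10 to 25% in 250, from 25 to 40% in 448, and from 40 to 50% in 374. Over the 19 libraries that do not stand apart there were 2309 absences (10.4% of 22211), with a median cover of 41.3% (quartiles 32.1 and 46.4). Of these, 85.3% had a cover of at least 25% and 2.30% a cover of 0. Most domains called missing thus kept peaks over part of their length, with and without the 3 libraries.

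The kept parts included bases that no library lost. Bases under peaks in all 22 libraries occurred in 1119 domains (95.7%) and made up a median of 24.4% of a domain's length, against 52.8% in domains present in every library. The longest unbroken stretch of such bases had a median of 2119 bp, against 5541 bp, and reached 1 kb in 954 partly missing domains (81.6%), against 975 of 975 (100%). Over the 19 libraries such bases occurred in 1145 partly missing domains (97.9%) and made up a median of 35.6% of the length, against 60.6%. Their longest stretch then had a median of 3017 bp, against 6414 bp. Cover was lower at the ends than in the middle. In partly missing domains the outermost of 20 equal bins averaged 43.8% and the middle ones 76.1%, and in domains present in every library they averaged 54.8% and 90.7%. Within the partly missing domains, the libraries in which a domain was absent averaged 16.98% at the ends and 37.9% in the middle, and those in which it was present averaged 48.1% and 82.3%. Over the 19 libraries the values were 18.8 and 39.1% where a domain was absent and 47.8 and 82.4% where it was present. The lower cover of absent domains is set by the rule. Low cover at the ends is partly fixed by construction, since a region begins and ends where fewer than 3 libraries have a peak.

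**Figure D2:**
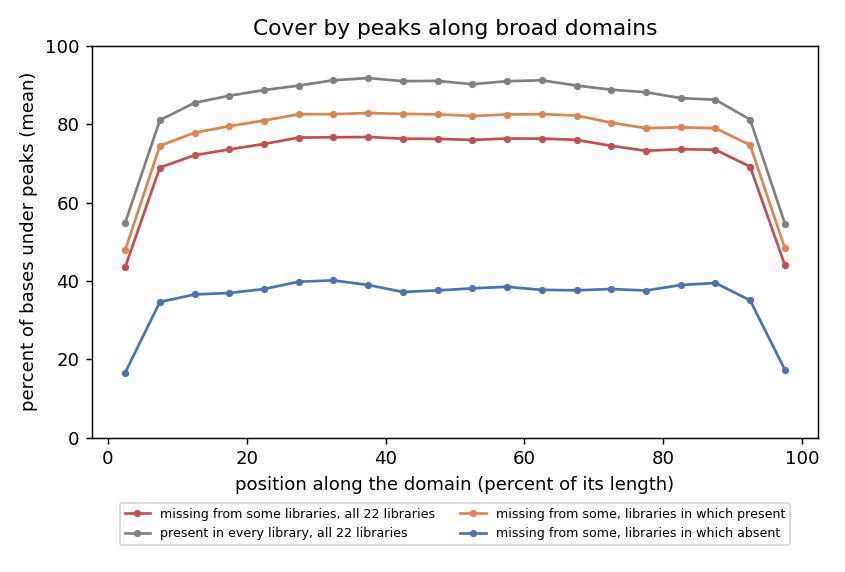
Mean cover along the domains in 20 equal bins (horizontal axis, percent of the domain's length; vertical axis, percent of bases under peaks). In the libraries in which a domain was absent the curve runs near 37.9% in the middle and 16.98% at the ends, below the curve of the libraries in which it was present at each position.

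Partly missing domains held more peaks per 10 kb, and their longest single piece took a smaller share of the length. In each library the domains held a median of 1.53 to 1.995 peaks per 10 kb, against 0.939 to 1.57 in the domains present in every library, and the value was higher in 22 of 22 libraries. The longest single piece took a median of 20.2 to 56.96% of a partly missing domain and 48.5 to 77.4% of a domain present everywhere. It was lower in 22 of 22. Where a domain was absent, the median library had 2.39 peaks per 10 kb and a longest piece of 20.4% of the length. Where it was present, the values were 1.65 peaks per 10 kb and 53.1%. The peaks themselves also ranked lower. Ranked among all peaks of the same library by the authors' fold enrichment, peaks of partly missing domains had medians at the 56.1 to 75.5 percentile and those of domains present in every library at the 78.6 to 88.4 percentile. Peaks in absent domains had medians at the 46.2 to 58.5 percentile, below those in present ones, at 71.03 to 83.7, in each of the 22 libraries. Over the 19 libraries that do not stand apart, the ranges were 68.6 to 75.5 in partly missing domains and 83.5 to 88.2 in the others. They were 46.2 to 58.5 in absent domains and 71.03 to 77.3 in present ones. Partly missing domains were also shorter, and the piece and rank measures were not compared within classes of length. These measures come from the peak lists that chose the domains and are descriptions of them.

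The longest of them lay on chromosome 17 from 14659717 to 14750461 (90.7 kb). Its cover ranged from 32.9 to 92.9% in familiar 120 (median 86.0), from 72.1 to 94.3% in control 120 (median 85.0) and was 96.6, 86.5, 85.3, 86.2 and 83.8% in familiar 30. In control 30 it was 86.1, 86.5, 53.3, 96.7 and 89.0%. The 2 low values belonged to familiar 120 replicate 3, the only library under 50%, and to control 30 replicate 3, and the groups overlapped. The same pair was lowest in 3 further long domains. Their cover was 45.5 and 76.1% at 11353346 to 11438729 of chromosome 6, 41.0 and 65.8% at 15258779 to 15325816 of chromosome 3, and 35.7 and 53.5% at 14134056 to 14194262 of chromosome 18. Each of these 4 was missing from familiar 120 replicate 3 alone.

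A domain on chromosome 14 from 13941433 to 14016486 (75.1 kb), the third longest, ran the other way. It was present in 16 libraries, 4 in each group. Its cover ranged from 36.4 to 100% in familiar 120 (median 63.2) and from 42.6 to 78.3% in control 120 (median 60.0). It was 59.6, 79.1, 99.7, 72.5 and 44.97% in familiar 30, and 67.6, 46.7, 100, 56.1 and 70.98% in control 30. The 3 highest values were those of familiar 120 replicate 3, familiar 30 replicate 4 and control 30 replicate 3, the libraries that stand apart.

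**Figure D3:**
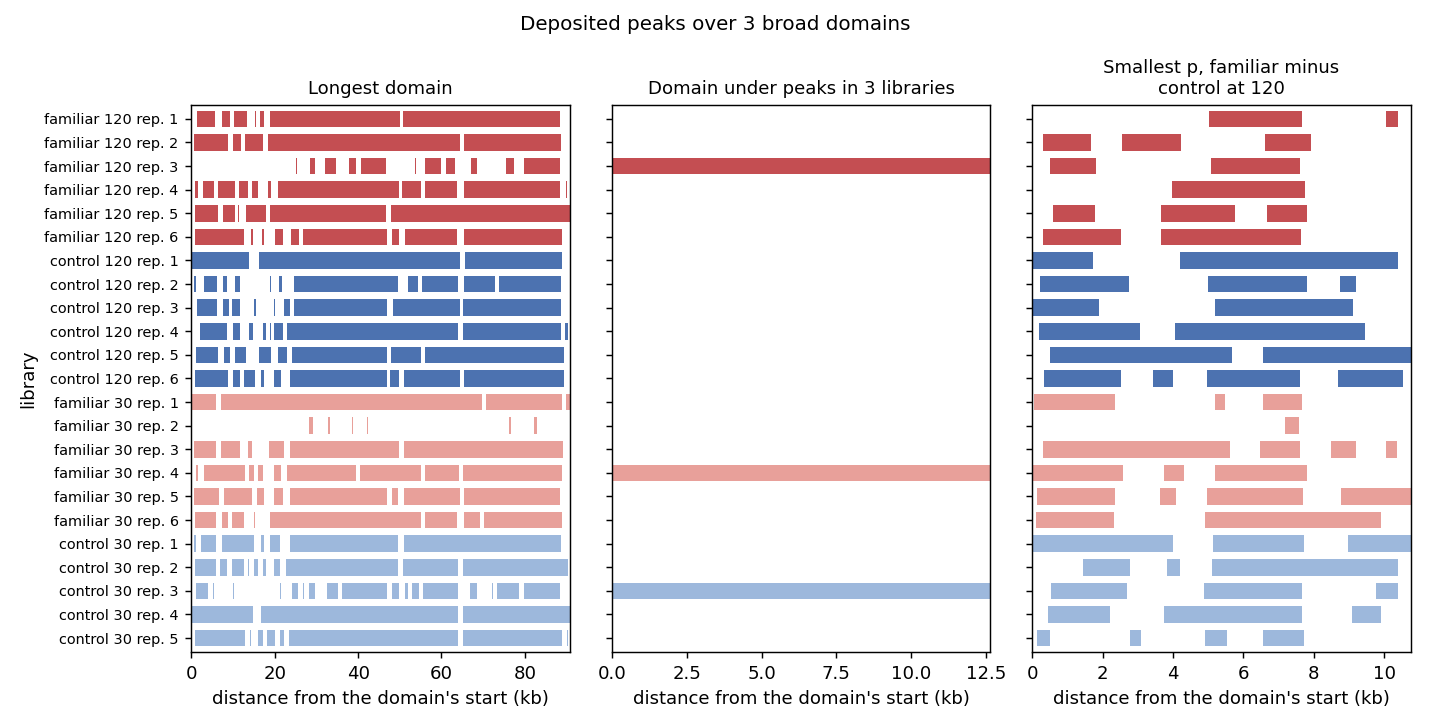
Deposited peaks (bars) along 3 domains in each of the 23 libraries, with distance from the domain's start in kb on the horizontal axis: the longest domain, the domain with the lowest mean cover, and the one with the smallest p for familiar minus control at 120. The longest domain is broken into short peaks in familiar 120 replicate 3 and control 30 replicate 3, while the second is spanned by a peak in 3 libraries and has none in the others.

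One library lacked more domains than any other. It was familiar 120 replicate 3, without 883 of the 1169 (75.5%). Its 5 companions lacked 79, 130, 321, 80 and 130, with the 321 in replicate 4. The control 120 libraries lacked 98, 172, 173, 75, 86 and 75, the familiar 30 libraries 103, 105, 33, 97 and 167, and the control 30 libraries 83, 117, 354, 136 and 82. The 354 belonged to replicate 3 and the 33 to familiar 30 replicate 4, the fewest of any library. Exactly 414 domains (35.4%) were missing from familiar 120 replicate 3 alone, and another 171 from it and control 30 replicate 3 alone. Both lacked 335 domains in all. Counted over the 19 libraries that do not stand apart, 573 domains (49.0%) were missing from at least 1, and the other 596 were missing from none of those 19. The 573 had a median length of 12529 bp, against 15392 bp for the 596.

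The losses of familiar 120 replicate 3 were uneven. It covered 64 domains completely and 130 by at least 90%, and it covered 275 by less than 25%. Among the 19 libraries that do not stand apart, 0 to 30 domains were covered completely, 34 to 327 by at least 90% and 3 to 47 by less than 25%. In the domains it did cover, its longest piece took a median of 73.9% of the length. Its peaks there stood at the 83.7 percentile of fold enrichment. In those it lacked the values were 16.3%, where the rule kept the piece under 50%, and the 49.99 percentile. Over the other 21 libraries the median longest piece in present domains was at most 59.7%, in familiar 120 replicate 1. These medians are over unlike sets, with 286 present domains in familiar 120 replicate 3 and 815 to 1136 in the others. Control 30 replicate 3 covered 52 domains completely and 50 by less than 25%. Both libraries thus had more complete domains than any of the 19, and more covered by less than 25%. For control 30 replicate 3 the 50 was close to the 47 of familiar 120 replicate 4. Its cover was 0 in 1 domain, where the 19 libraries had 1 to 6 such domains. Complete cover and a long piece are partly set by construction where the 3 libraries that stand apart share peaks that others lack. A base counts only where at least 3 libraries have a peak, so such shared peaks set the region's limits.

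**Figure D4:**
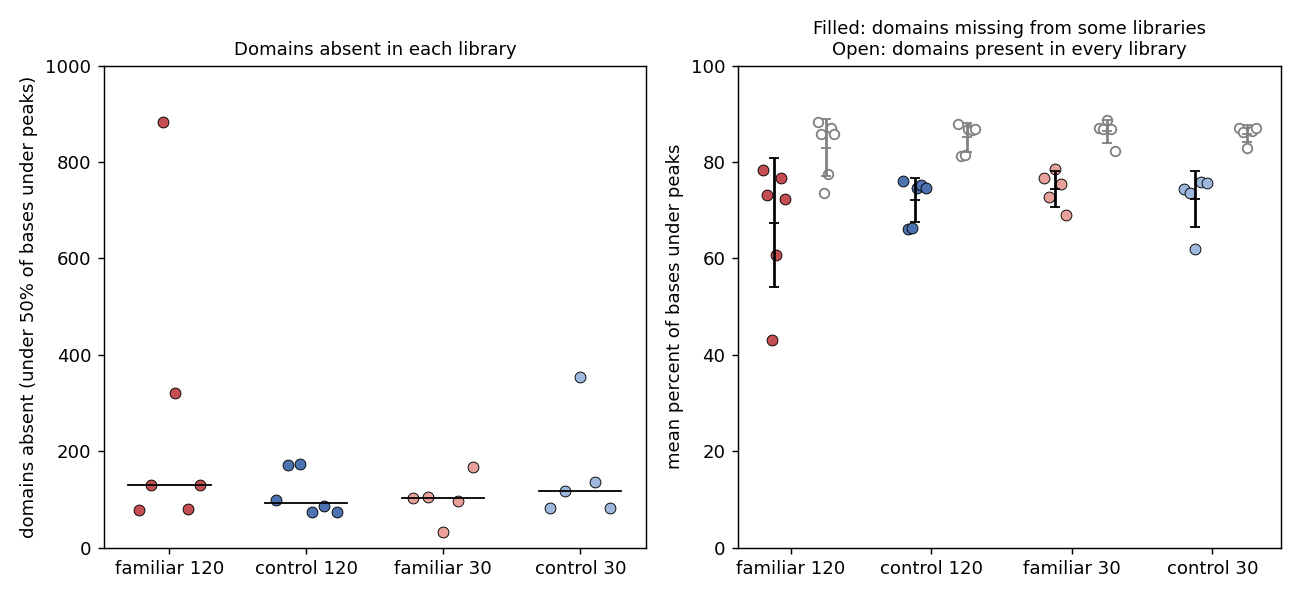
Left, number of the 1169 domains absent in each of the 22 libraries (points), with the median of each group as a line. Right, mean cover per library (points) with the group's mean and SD, filled for partly missing domains and open for domains present in every library; familiar 120 replicate 3 is the high point at 883 on the left and the low filled point at 43.2% on the right.

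The domains present in fewest libraries were mostly present in the libraries that stand apart. Of the 60 domains present in 11 libraries or fewer, familiar 120 replicate 3 had 46, familiar 30 replicate 4 had 53 and control 30 replicate 3 had 48. The other 19 libraries had 2 to 32 of them (median 15), the highest in control 120 replicate 4. Of the other 1109 domains, familiar 120 replicate 3 had 240 (21.6%), control 30 replicate 3 had 767 (69.2%) and familiar 30 replicate 4 had 1083 (97.7%). Over all 1169 domains, the 3 libraries had a higher cover than each of the other 19 in 89 (7.61%), while 3.90% of all regions tested did so. They had a lower cover than each of the other 19 in 15 (1.28%), against 0.559% of all regions. In the other domains the 3 libraries did not separate from the rest. A base counts only where at least 3 libraries have a peak, so a domain rare elsewhere can enter through 3 libraries that share peaks. These 3 were known from the same lists to stand apart in where their peaks lay. The counts and shares thus partly follow from the rule and from the choice of the 3 libraries, and are given without a test.

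The 8 domains present in 3 libraries were all present in the same 3. They lay on chromosomes 4, 11, 12, 13, 18 and 19, with a pair each on 13 and 18. On chromosome 18 from 24396544 to 24409180 the cover was 100% in familiar 120 replicate 3, familiar 30 replicate 4 and control 30 replicate 3 and 0 in each of the other 19. The neighbouring domain on chromosome 18 from 24413410 to 24435463 begins 4229 bp further on. It was covered to 100% in the same 3 libraries, to 15.05% in control 120 replicate 4 and to at most 4.97% in the remaining libraries. The pair on chromosome 13 runs from 20253167 to 20264562 and from 20329282 to 20341741, with 64719 bp between them. The other 19 libraries reached 30.7% in the first of this pair and 47.98% in the second.

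In the remaining 4, the other 19 libraries kept some cover. Their range was 21.8 to 40.8% on chromosome 4 from 20307796 to 20329630, 0 to 24.9% on chromosome 11 from 17780182 to 17790194, 2.86 to 45.7% on chromosome 12 from 20641325 to 20652220, and 14.4 to 47.7% on chromosome 19 from 10236193 to 10255720. A cover near 100% in the 3 libraries is set by construction there, since a base counts only where at least 3 libraries have a peak. The fold enrichment was not part of the rule. The peaks over the 8 domains stood at the 79.7 to 99.1 percentile of their library in familiar 120 replicate 3, at the 47.8 to 79.5 percentile in familiar 30 replicate 4 and at the 81.6 to 95.6 percentile in control 30 replicate 3. Nearly all of them were single peaks, with 2 peaks in familiar 120 replicate 3 over the second domain of chromosome 13 and 2 in familiar 30 replicate 4 over that of chromosome 19. Familiar 30 replicate 4 had the lowest ranked peak of the 3 in each of these domains. Both domains of chromosome 18 had the same percentile in familiar 120 replicate 3 (99.1) and in control 30 replicate 3 (95.6). A single peak over both would give that, so they may not be separate there.

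Familiar 30 replicate 2 took no part in the rule, so that its peaks are an independent readout from 1 library. It touched 597 of the 1169 partly missing domains (51.1%) and 795 of the 975 domains present in every library (81.5%). Its median cover was 0.840% and 6.28%. No partly missing domain reached 50% in it, with a highest value of 26.1%, and 1 domain of the other class did. Within each class of length its peaks touched the partly missing domains less often, with 38.2 against 67.4% at 10 to 12 kb, 47.97 against 77.3% at 12 to 16 kb, 58.01 against 82.0% at 16 to 24 kb and 80.6 against 95% above. The share touched was 68.1% of the domains present in 21 libraries, 47.0% of those in 20, 36.2% of those in 16 to 19 and 22.4% of those in 3 to 15. Domains present in 21 libraries were also longer (median 15714 bp, against 13620 bp for those in 20). Within the classes of length, the share touched in domains present in 21, in 20 and in fewer was 56.03, 30.3 and 30.3% at 10 to 12 kb, and 63.9, 50.6 and 29.5% at 12 to 16 kb. It was 70.5, 55.6 and 30% at 16 to 24 kb, and 84.8, 69.2 and 71.4% above, where the last share rests on 14 domains. Domains present in 21 libraries were thus touched most often in each class. The domains with its highest cover, each present in 21 libraries, were those at 9855395 to 9866442 of chromosome 19, at 13930624 to 13956534 of chromosome 2 and at 32958761 to 32969362 of chromosome 10.

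Partly missing domains were found on each of the 24 numbered chromosomes. Their share of a chromosome's long regions ran from 40.5% on chromosome 24 (17 of 42) and 42.3% on chromosome 9 (52 of 123) to 67.6% on chromosome 2 (73 of 108) and 69.2% on chromosome 17 (74 of 107). The nearest other region was a median of 1088 bp away, against 1157 bp for domains present in every library. Another long region lay within 10 kb of 430 of them (36.8%), against 337 (34.6%). Their surroundings on these measures were close to those of the domains present in every library.

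The limits of the rule split some domains of nearly equal values. The shortest domain, on chromosome 4 from 14364231 to 14374232, was 10002 bp long and present in 9 libraries, while a region of 9998 bp on chromosome 19 from 11643264 to 11653261, present in 21, fell just short. On chromosome 15 from 18241372 to 18254323 a cover of 49.98% in the lowest library made a domain partly missing. On chromosome 6 from 7535884 to 7545948 a lowest cover of 50.01% placed the region among those present in every library.

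Whether familiarity with a client went with a change in these domains was asked at each time label. Mean cover over the 1169 domains was 67.4% ± 13.4 in familiar 120 and 72.2% ± 4.63 in control 120 (SD, n = 6 each). It was 74.5% ± 3.68 in familiar 30 and 72.3% ± 5.86 in control 30 (SD, n = 5 each). The groups overlapped, and each difference was smaller than the spread of its wider group. Without the 3 libraries that stand apart, familiar 120 had 72.3% ± 6.93 (n = 5) and control 120 had 72.2% ± 4.63 (n = 6). Familiar 30 then had 73.4% ± 3.37 and control 30 had 74.9% ± 1.02 (n = 4 each), so that the means at 120 nearly coincided and those at 30 changed their order. Within the fish numbers 43 to 59, familiar 120 had 51.9% ± 12.4 (n = 2) and control 120 had 72.02% ± 4.96 (n = 3). Within 17 to 29 the values were 75.8% ± 3.64 (n = 2) in familiar 120 and 71.1% ± 7.07 (n = 2) in control 120. Within 69 to 80 they were 74.6% ± 3.05 (n = 2) in familiar 120 and 74.6% in 1 control library. The lower mean of familiar 120 thus came from replicates 3 (43.2%) and 4 (60.7%), its 2 libraries within fish numbers 43 to 59. All 3 libraries that stand apart are in that range. They include familiar 30 replicate 4 (78.5%) and control 30 replicate 3 (62.0%), the highest and lowest libraries at time label 30. At time label 30, familiar libraries had 75.6% ± 4.04 (n = 2) and control libraries 70.04% ± 7.01 (n = 3) in 43 to 59, and 72.2% ± 4.54 and 75.7% ± 0.165 (n = 2 each) in 69 to 80, while 17 to 29 held no control 30 library.

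In limma's test across 52924 regions, with Benjamini-Hochberg adjustment, no domain passed an adjusted p of 0.05 between familiar and control fish at 120 (0 of 1169, against 0% of all regions). The lowest adjusted p was 0.968. At an unadjusted p under 0.05, 10 domains stood (0.855%), against 4.35% of all regions. Of these, 1 was higher in familiar fish (0.703% of all regions) and 9 were lower (3.65%). The split was 7 higher and 5 lower without the 3 libraries that stand apart, 5 and 4 without familiar 120 replicate 3, 7 and 5 without familiar 120 replicate 4, and 4 and 3 with covered length as a covariate. The median difference was -5.31 percentage points over the domains and -4.13 over all regions. Without familiar 120 replicate 3 the median over the domains was 0.42 points, and without the 3 libraries that stand apart it was 0.44. With covered length as a covariate it was -0.64, and the median over all regions was then -0.76. Covered length is the total of the same peaks, so by construction it takes out a shift shared by all regions. The median over the domains had other values under further settings. It was -6.81 with the range of fish numbers taken as a block, -6.78 where only peaks with a -log10 q value of 5 or more were used, and -8.94 with regions from bases under peaks in at least 11 libraries. With presence at 80% of bases it was -3.91, and with all 23 libraries it was -3.62. The count at the unadjusted level ranged from 3, without control 120 replicate 6, to 29, without familiar 120 replicate 6, when libraries were left out in turn. When single libraries were left out, the sign of the median turned without familiar 120 replicate 3 and with no other.

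The smallest p at 120 belonged to a domain of 10753 bp on chromosome 12 from 2266132 to 2276884. Cover ranged from 27.8 to 57.7% in familiar 120 (median 38.1) and from 53.9 to 87.1% in control 120 (median 70.5), and the groups overlapped slightly. It was present in 1 of the 6 familiar 120 libraries and in 6 of 6 control 120 libraries. The difference was -29.1 points (SE 9.59, limma adjusted p = 0.968). On chromosome 16 from 10661872 to 10672203, cover ranged from 29.3 to 70.7% in familiar 120 (median 54.8) and from 73.2 to 88.6% in control 120 (median 81.0). This was the one domain whose groups did not overlap at 120, all 6 familiar libraries being lower, where 0.104% of all regions showed that and 0.00945% showed the opposite. Its difference was -27.6 points (SE 9.29, limma adjusted p = 0.968). The next domain, on chromosome 8 from 26656091 to 26666322, ranged from 24.0 to 63.4% in familiar 120 and from 62.0 to 78.3% in control 120, and its estimate was -25.0 points (SE 8.96) with the same adjusted p.

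At time label 30, likewise, 0 of 1169 domains passed (0% of all regions), with a lowest limma adjusted p of 1. At an unadjusted p under 0.05, 2 domains stood (0.171%), against 3.0% of all regions. Both were higher in familiar fish (1.72% of all regions) and 0 were lower (1.27%), while without the 3 libraries that stand apart 6 were higher and 6 lower. The median difference was 2.13 points over the domains and 0.44 over all regions. It was -1.48 points without control 30 replicate 3, -1.78 without the 3 libraries that stand apart, 1.17 with covered length as a covariate and -11.6 with all 23 libraries, where familiar 30 replicate 2 enters and domains are rebuilt. The unadjusted count ranged from 1, without replicate 1 or replicate 5 of either group, to 11, without control 30 replicate 3. The positive direction of the median was thus lost without control 30 replicate 3 and with familiar 30 replicate 2.

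At 30 the domain with the smallest p was at 10716725 to 10727025 of chromosome 1. Its cover was 58.1, 71.2, 77.9, 63.9 and 65.7% in familiar 30 and 36.04, 40.6, 68.3, 42.6 and 45.3% in control 30. All familiar libraries were at or above 50% and 1 control library was, replicate 3, at a level inside the familiar range. The difference was 20.8 points (SE 8.27, limma adjusted p = 1). On chromosome 2 from 22430576 to 22445905 cover was 86.4, 77.1, 86.5, 90.8 and 77.2% in familiar 30 and 61.3, 65.6, 51.3, 84.4 and 47.8% in control 30, an estimate of 21.5 points (SE 9.88, limma adjusted p = 1). The groups overlapped here too. The third lay at 23684756 to 23696172 of chromosome 8, with 89.7, 76.7, 57.7, 85.4 and 74.1% in familiar 30 and 64.5, 64.7, 30.99, 74.0 and 44.5% in control 30. It also overlapped, and the estimate was 21.01 points (SE 10.2, limma adjusted p = 1). On chromosome 8 from 19015172 to 19036513 they did not, with 79.1 to 89.99% in familiar 30 and 67.9 to 78.9% in control 30. It was the only such domain at 30, where 0.149% of all regions had every familiar library above every control library and 0.111% had every one below.

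The time label was compared within each kind of fish. Fish numbers came in runs with 1 time label each, such as 43 to 48 at 30 and 55 to 59 at 120. The time label therefore cannot be told apart from the run. Each range of fish numbers used as a block joins runs of both labels, so the block does not adjust for the run. In familiar fish, mean cover was 67.4% ± 13.4 at 120 (n = 6) and 74.5% ± 3.68 at 30 (SD, n = 5), and without the 3 libraries that stand apart it was 72.3% ± 6.93 (n = 5) and 73.4% ± 3.37 (n = 4). In control fish it was 72.2% ± 4.63 at 120 (n = 6) and 72.3% ± 5.86 at 30 (n = 5). By limma 0 of 1169 domains passed in familiar fish (lowest adjusted p 0.999) and 0 of 1169 in control fish (lowest adjusted p 1), against 0% of all regions in both. At an unadjusted p under 0.05, 22 domains stood in familiar fish (1.88%), against 4.19% of all regions. All 22 were lower at 120 (3.49% of all regions) and 0 were higher (0.695%). In control fish 3 stood (0.257%), against 3.20%, with 1 higher at 120 (1.75% of all regions) and 2 lower (1.45%). There the split was 3 higher and 15 lower without the 3 libraries, and 8 and 1 with covered length as a covariate. The median difference in familiar fish was -7.24 points over the domains and -4.81 over all regions. Over the domains it was -1.37 without familiar 120 replicate 3, -1.13 without the 3 libraries and -0.31 with covered length as a covariate. That covariate takes out a shift shared by all regions by construction, and their median was then -0.19. Under further settings the median over the domains moved either way. It was -7.93 with the range of fish numbers as block, -8.90 under that stricter q value and -9.78 with bases in at least 11 libraries. With presence at 80% of bases it was -5.60, and it turned to 7.49 with all 23 libraries. In control fish the median was 0.15 points over the domains, 1.75 with covered length as a covariate, and -2.79 without the 3 libraries. The unadjusted count in familiar fish ranged from 10, without familiar 30 replicate 5, to 44, without familiar 120 replicate 5. In control fish it ranged from 0, without control 120 replicate 3, to 5, without control 120 replicate 1 or control 30 replicate 2.

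In familiar fish the domain with the smallest p was at 9027676 to 9038679 of chromosome 6. Its cover ranged from 36.9 to 68.3% at 120 (median 63.7) and was 100, 83.7, 88.2, 76.6 and 67.7% at 30. The lowest value at 30 was just under the highest at 120, and the difference was -24.3 points (SE 7.89, limma adjusted p = 0.999). In control fish the same domain had 55.01 to 61.4% at 120 and 61.9 to 80.1% at 30, without overlap. A domain on chromosome 6 from 12423002 to 12433174 was present in 1 of 6 familiar libraries at 120 and in 5 of 5 at 30. Its cover ranged from 16.6 to 65.6% at 120 (median 43.4) and was 64.4, 70.7, 60.4, 80.4 and 90.04% at 30, an estimate of -31.3 points (SE 10.6, limma adjusted p = 0.999). The domain at 26656091 of chromosome 8, named above at 120, had 24.0 to 63.4% at 120 and 84.9, 69.4, 66.3, 88.6 and 55.9% at 30, an estimate of -27.8 points (SE 9.39, limma adjusted p = 0.999). These 3 domains were lower at 120, with overlap in each.

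Familiar libraries at 120 and 30 did not overlap in 2 domains, both lower at 120, where 0.157% of all regions did so and 0.0113% were higher without overlap. One was the shortest domain, on chromosome 4 from 14364231, with 33.9 to 43.6% at 120 and 50.6 to 79.2% at 30. The other, on chromosome 7 from 22578949 to 22591652, had 43.2 to 79.8% at 120 and 81.7 to 94.9% at 30. In control fish 1 domain was lower in every library at 120 (0.100% of all regions), the one on chromosome 6 from 9027676, and 1 was higher (0.102%). The higher one was the domain on chromosome 16 from 10661872, with 73.2 to 88.6% at 120 and 50.7 to 70.4% at 30. That domain is also the one that separated familiar from control fish at 120, and both comparisons use the same control 120 libraries.

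The smallest p in control fish belonged to chromosome 14 from 7475679 to 7506018, a domain of 30340 bp. Its cover ranged from 46.5 to 85.1% at 120 (median 64.8) and was 68.6, 79.3, 92.8, 98.5 and 81.3% at 30, and the estimate was -19.3 points (SE 8.51, limma adjusted p = 1). On chromosome 17 from 9048062 to 9059934 cover ranged from 67.8 to 96.6% at 120 (median 89.3) and was 60.5, 43.9, 94.7, 62.4 and 64.3% at 30, and the estimate was 21.5 points (SE 9.51, limma adjusted p = 1). The third, at 12927829 to 12938027 of chromosome 8, ranged from 42.0 to 93.4% at 120 (median 65.9) and had 99.7, 78.99, 94.6, 90.04 and 87.7% at 30, with an estimate of -23.4 points (SE 11.2, limma adjusted p = 1). The groups overlapped in all 3 domains, of which 1 had the higher mean at 120 and 2 the lower.

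Whether the difference between familiar and control fish was itself different at 120 and 30 was tested as an interaction. By limma 0 of 1169 domains passed (0% of all regions), with a lowest adjusted p of 0.9999, and 11 stood at an unadjusted p under 0.05 (0.941%), against 4.15% of all regions. All 11 were negative (3.22% of all regions) and 0 positive (0.926%). Without the 3 libraries that stand apart 23 stood, 10 negative and 13 positive. The median interaction was -7.11 points over the domains and -5.19 over all regions. It was -2.03 without familiar 120 replicate 3, -1.88 with covered length as a covariate, 1.96 without the 3 libraries, 7.86 with all 23 libraries and -13.0 with bases in at least 11 libraries. Its negative direction was therefore not kept under each setting. The domain with the smallest p, on chromosome 23 from 7717208 to 7732620, had 8.82 to 80.8% in familiar 120 (median 55.1) and 57.3 to 83.3% in control 120 (median 73.5). It had 83.4, 86.6, 82.9, 89.5 and 53.7% in familiar 30 and 60.6, 60.8, 53.9, 43.9 and 63.3% in control 30. Familiar libraries were mostly lower than control libraries at 120 and mostly higher at 30, with an interaction of -45.02 points (SE 15.8). The next 2, at 23684756 of chromosome 8 and 9048062 of chromosome 17, had interactions of -37.4 (SE 13.8) and -34.9 points (SE 13.4). The unadjusted count ranged from 5, without familiar 30 replicate 5, to 21, without familiar 30 replicate 6.

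Across these comparisons the domains reached the unadjusted level less often than all regions did. Their share was the lower of the pair in 31 of 31 fits in each of the 5 comparisons, the 31 being the fit reported here, 8 with another processing choice and 22 with a library left out. Those fits share libraries and 1 way of estimating spread, so the number is a description. In that estimate limma draws the spread of each region toward 1 value common to all regions tested, few of which are 10 kb or longer. The spread of a region is also pooled over the 4 groups. A domain on chromosome 8 from 19015172, whose familiar and control libraries did not overlap at 30, had an unadjusted limma p of 0.184. Its SD was 4.18 in familiar 30 and 4.90 in control 30, and 14.4 in familiar 120, which is outside that comparison. The lower share is not read as stability of the domains, and its cause was not tested. Between these groups no change in the cover of a partly missing domain was detectable at the adjusted threshold. That holds for 5 or 6 libraries a group, the shared spread and adjustment over all regions tested. The lists cannot show whether the height of the signal differed.

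**Figure D5:**
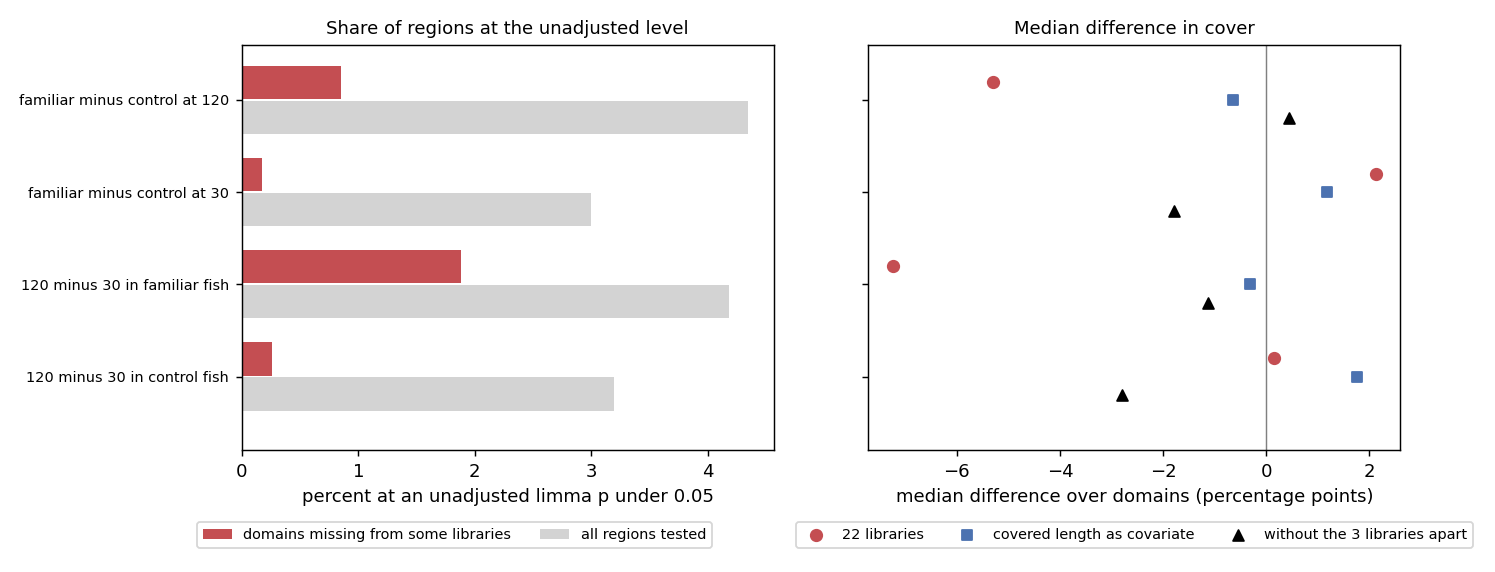
Left, percent of the 1169 domains (red) and of all regions tested (grey) at an unadjusted limma p under 0.05 in 4 comparisons. Right, median difference in cover over the domains, in percentage points. It is shown with all 22 libraries, with covered length as a covariate and without the 3 libraries that stand apart. The -5.31 at 120 and the -7.24 in familiar fish lie nearer 0 in both alternatives. For covered length, the total of the same peaks, a move toward 0 is partly built in.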

How the data were processed

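Peaks were called for each library separately and were deposited by the authors as broad peak lists. The fold enrichment deposited by the authors for each peak is a ratio of signal over background, and the deposited -log10 q value is the peak caller's. MACS2, Picard, SAMtools, Bowtie2, FastQC and Trimmomatic 0.39 are listed, per the submitters' processing notes. The genome build, the calling settings and any use of input as control were not given in the sources used here. Per the labels' protocols, adapters held molecular identifiers and sequencing was paired-end.

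From the lists, regions, cover and presence were computed as described, in regions of at least 200 bp without the mitochondrial genome, with Python 3.11.15, numpy 2.4.6 and pandas 2.3.3. The test of cover used limma 3.58.1 (R 4.3.3) and 4 groups in 1 model, on the regions with a mean cover of 5 to 95%, which hold all 1169 domains. P-values are two-sided. Cover is bounded at 0 and 100%, which the model does not describe. Covered length is the total of the same peaks, so as a covariate it takes out a shift shared by all regions by construction. Fold and q values were compared within a list only. The calculations were tested on simulated data. A list with fewer reads behind it gives fewer and narrower peaks, and since depth is unknown, counting error is not given.

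The domains, tests and rules were chosen with earlier results of these data known. Named domains are the 5 longest, the 5 in fewest libraries, the 3 with the smallest p in each comparison, the 3 with the highest cover in familiar 30 replicate 2 and those nearest the rule's limits. The 8 domains present in 3 libraries and those whose groups do not overlap were chosen after their values were seen. Gene and marker lists were not used. Alternatives were a -log10 q of at least 5, all 23 libraries, leaving out the 3 libraries or each library, bases under peaks in at least 11 libraries, presence at 80%, covered length as a covariate, fish-number range as a block, and no filter on mean cover. The descriptions of absences, constant bases and profile over 19 libraries, and the share touched in familiar 30 replicate 2 by presence within length classes, were added after seeing the data.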

Additional observations from a re-analysis of the deposited data

Results flagged for a closer look

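Values were flagged where the highest or lowest library of a group of 5 or 6 lay far from the rest by Dixon's criterion, which chance meets in about 1 of 20 groups. Of 144 sets of values tested, 38 were flagged. The rule used cover and presence in these libraries, so this number is not set against that rate. Familiar 120 replicate 3 lay apart in domains absent (883), domains at a cover of 0 (19) and the fold percentile of its peaks (56.1). Control 30 replicate 3 lay apart in domains absent (354), mean cover (62.0%) and the longest piece (34.0% of the length). Familiar 30 replicate 2 had a mean cover of 2.94%.

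Among single domains, familiar 120 replicate 3 was low on chromosome 17 from 14659717 (32.9%), chromosome 6 from 11353346 (45.5%), chromosome 3 from 15258779 (41.0%), chromosome 18 from 14134056 (35.7%), chromosome 19 from 9855395 (43.4%) and chromosome 22 from 6106517 (49.9%). Each of these domains was missing from that library alone, so its low value follows in part from the rule. Control 30 replicate 3 was low on chromosome 17 from 14659717 (53.3%), chromosome 3 from 15258779 (65.8%) and chromosome 22 from 6106517 (66.1%), and high on chromosome 1 from 10716725 (68.3%). Familiar 30 replicate 1 was high on chromosome 17 from 14659717 (96.6%), control 120 replicate 5 was high on chromosome 2 from 22430576 (86.7%), and familiar 30 replicate 6 was low on chromosome 23 from 7717208 (53.7%).

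In 5 domains present in 3 libraries, the flags of those 3 libraries follow from the domains' choice. Familiar 120 replicate 3, familiar 30 replicate 4 and control 30 replicate 3 were at 100% on chromosome 18 from 24396544 and from 24413410, chromosome 13 from 20253167 and chromosome 11 from 17780182. On chromosome 12 from 20641325 they were at 99.9, 97.6 and 98.7%. Apart from these, control 120 replicate 4 was highest of its group on chromosome 18 from 24413410 (15.05%), chromosome 13 from 20253167 (30.7%) and chromosome 12 from 20641325 (45.7%).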

How the results depend on the processing

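By limma, 0 domains passed an adjusted p of 0.05 in any of the 5 comparisons under each alternative and each library left out. Among all regions tested, some passed in a few of these fits. The most was 28, for 120 against 30 in familiar fish without familiar 30 replicate 6, and the other fits had 0 to 3. The number of partly missing domains was 2143 with all 23 libraries, 573 without the 3 libraries that stand apart, 232 from bases under peaks in at least 11 libraries and 2047 with presence at 80%. It ranged from 755, without familiar 120 replicate 3, to 1169 when single libraries were left out. Mean cover under a -log10 q of at least 5 was 67.0% in control 120 and 69.02% in familiar 30. With all 23 libraries it was 78.1% in control 120, 67.4% in familiar 30 and 78.5% in control 30. With bases in at least 11 libraries it was 82.2% in familiar 120, 91.2% in control 120, 91.8% in familiar 30 and 88.3% in control 30. With presence at 80% it was 77.3% in control 120 and 79.2% in familiar 30. These settings rebuild the domains, so other regions are averaged. Where the 3 libraries or single libraries are left out, the domains are kept and their number can only fall. Leaving out single libraries gave 65.3 to 72.3% in familiar 120, 71.4 to 73.4% in control 120, 73.4 to 75.8% in familiar 30 and 71.4 to 74.9% in control 30.

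Domains at an unadjusted p under 0.05 moved by over 1.5 times in number under these settings, and the cause was not tested. The domains tested numbered 1312 at a -log10 q of at least 5, 2143 with all 23 libraries, 1164 without the 3 libraries, 231 with bases in at least 11 libraries, 2039 with presence at 80% and 1169 otherwise, so shares and the shares of all regions are given in brackets. Between familiar and control fish at 120 they numbered 33 at the stricter q (2.52 against 3.92%), 1 with all 23 libraries (0.0467 against 3.51%) and 22 with fish-number range as a block (1.88 against 5.13%), and 3 to 29 with single libraries left out. With bases in at least 11 libraries they numbered 7, a move of less than 1.5 times, but the share was the highest of the 31 fits (3.03 against 5.67%). At 30 they numbered 11 at the stricter q (0.838 against 2.13%), 1 with all 23 libraries (0.0467 against 3.29%), 12 without the 3 libraries (1.03 against 4.2%), 0 with bases in at least 11 libraries (0 against 2.2%), 6 with covered length (0.513 against 3.36%), 1 with the block (0.0855 against 3.46%), and 1 to 11. For 120 against 30 in familiar fish they numbered 0 with all 23 libraries (0 against 2.25%), 12 without the 3 (1.03 against 4.11%), 1 with bases in at least 11 libraries (0.433 against 4.41%), 8 with covered length (0.684 against 3.77%), and 10 to 44. In control fish they numbered 14 at the stricter q (1.07 against 2.36%), 0 with all 23 libraries (0 against 3.14%), 18 without the 3 (1.55 against 4.46%), 1 with bases in at least 11 libraries (0.433 against 2.64%), 5 with presence at 80% (0.245 against 3.2%), 9 with covered length (0.77 against 3.92%), 7 with the block (0.599 against 3.66%), and 0 to 5. For the interaction they numbered 24 at the stricter q (1.83 against 2.86%), 0 with all 23 libraries (0 against 3.28%), 23 without the 3 (1.98 against 4.82%), 1 with bases in at least 11 libraries (0.433 against 4.07%), and 5 to 21. The share of domains was below that of all regions in each of these. All 390 repeats of the differences of named domains kept their direction and stayed above the threshold. These domains were named for their small p in the same data, so a kept direction is no separate evidence. Settings that rebuild the domains are not among the repeats. No paired analysis was possible because the replicate numbers follow the order of deposition and the fish numbers differ between groups. Unknown read depth limits how far a missing domain can be told from a shallow library.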
